A study of Homo sapiens with 94 samples.

Results

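The collagen genes form a family of 44 of the 20239 genes measured by RNA sequencing in tumors grown from NCI-H226, a human malignant pleural mesothelioma line in which the Hippo regulator NF2 is deleted. The members were all genes of the deposited expression table whose symbol has the form COL, a type number, A and a chain number. Subcutaneous NCI-H226 tumors in SCID mice, a host without functional T and B cells, were collected after a single oral dose of K-975, a covalent inhibitor of the TEAD transcription factors, at 30, 100 or 200 mg/kg, after vehicle (ethanol, Solutol and glucose at pH 3), or untreated, in 3 separate studies sampled at 1 h, at 3 to 6 h and at 24 h. The 94 tumors comprised 15 untreated, 19 vehicle and 60 treated tumors, with 5 tumors per group at 1 h and 24 h (4 for vehicle at 24 h), and at 3 to 6 h 5 untreated tumors and 10 each for vehicle and every dose, from paired cage groups. The labels do not give the hour of each cage group, so that an arm of this study may mix tumors taken at different hours between 3 and 6 h. Every arm at 1 h and at 24 h was a single cage group, so that treatment and cage group cannot be told apart in those studies. The dosing volume was 20 mL/kg for vehicle and the highest dose and 10 mL/kg for the lower doses, so that 30 and 100 mg/kg differed from vehicle in volume as well as in drug, and from 200 mg/kg in volume as well as in dose, which cannot be told apart in those comparisons. All tumors came from a single cell line. The 3 doses of a study were compared with the same vehicle tumors.

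Collagens are extracellular proteins built from alpha chains wound into a triple helix. Fibrillar collagens give tissues tensile strength, collagen IV forms the network of basement membranes, collagen VI forms beaded filaments around cells, and FACIT collagens attach to fibril surfaces. Mesothelial cells rest on a basement membrane that contains collagen IV. Several collagens need more than 1 kind of chain, so the levels of partner chains are of interest beside each other.

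Levels are given as FPKM, fragments per kilobase of transcript scaled to the mapped fragments of a library. The libraries were enriched by hybrid capture, so that levels of different genes can be set side by side only with caution. Sequencing depth is unknown. In 91 of the 94 libraries between 11344 and 11665 genes reached 1 FPKM. The other 3 libraries, all from treated tumors (200 mg/kg at 1 h, 100 mg/kg at 24 h and 30 mg/kg at 24 h, 1 each), reached 1 FPKM in fewer than 10000 genes and were kept out of the tests. A value of 0 does not show that a gene was silent in this table, since POLR2A, which encodes the largest subunit of RNA polymerase II, was listed at 0 in 40 of the 94 libraries. POLR2A averaged 0.152 FPKM over the 91 libraries and EEF1A1, which encodes a translation elongation factor, 7.64. A low value may therefore not show a low transcript level either. Over the 91 libraries, human fibroblast markers were low for DCN (1.31 FPKM on average), LUM (1.03) and PDGFRA (0.387), DPT was at 0 throughout, and THY1 and PDGFRB reached 144 and 32.6. Other marker lists were as mixed. Of the endothelial markers PECAM1 had a mean of 0.0342 and KDR 66.3 FPKM, of the leukocyte markers PTPRC 0.416 and CD68 138, and of the mesothelial markers UPK3B 1.61, WT1 29.6, MSLN 261 and CALB2 613. The TEAD target CCN2, given as a check of the dosing, was lower in all 5 tumors at 200 mg/kg and 24 h than in any of the 4 vehicle tumors (log2 fold change of -1.44, SE 0.209, adjusted p = 0.00000211).

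Of the 44 collagen genes, 17 (38.6%) were expressed at a mean of 1 FPKM or more over the 94 libraries, against 57.2% of all genes. COL6A1 was the highest at a mean of 776 FPKM, rank 51 of all genes, followed by COL1A1 at 618, COL4A2 at 437, COL6A2 at 396, COL5A1 at 344, COL3A1 at 290.4, COL4A1 at 277, COL18A1 at 221, COL8A1 at 149.6, COL12A1 at 117 and COL4A5 at 107. A gap separated these 11 genes above 100 FPKM from COL5A2 at 11.5, COL27A1 at 10.2, COL7A1 at 9.04, COL16A1 at 6.96, COL11A2 at 1.698 and COL4A4 at 1.23. Just below the limit were COL9A3 at 0.959, COL4A6 at 0.8395 and COL17A1 at 0.699. COL4A4 was at or above 1 FPKM in 55 of 94 libraries and COL9A3 in 38, so that neither was clearly on 1 side of the limit. Of the 27 genes below the limit, 15 did not reach 1 FPKM in any of the 91 libraries, and COL6A5 was at 0 throughout.

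**Figure D1:**
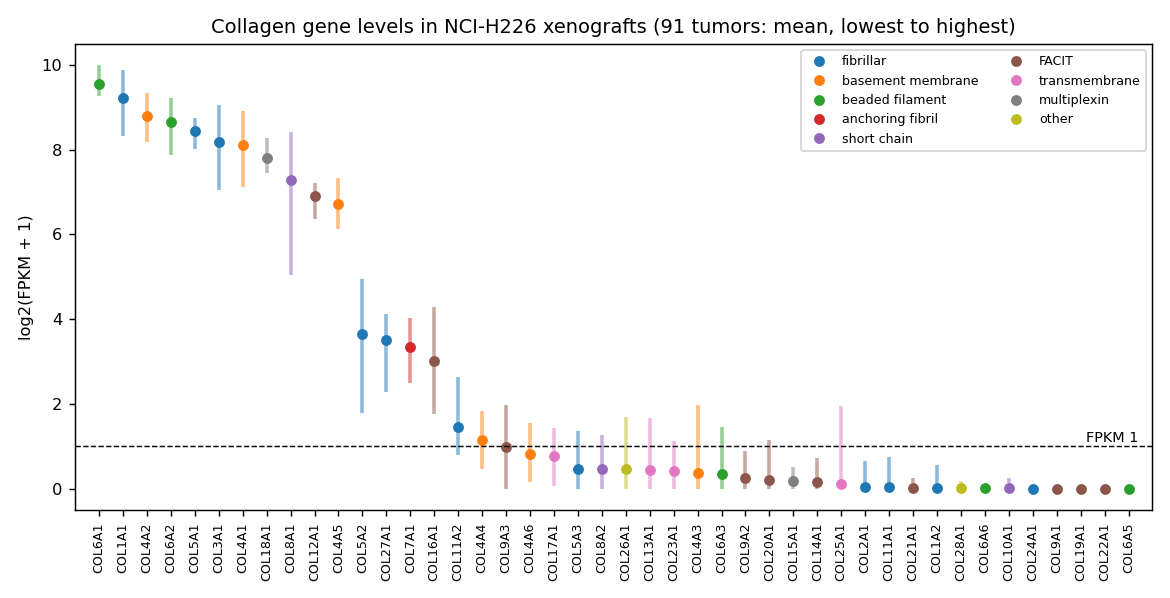
Level of each of the 44 collagen genes over the 91 tumors that entered the tests, as log2(FPKM + 1), with points at the mean, lines from the lowest to the highest tumor, colors for the structural class and a dashed line at 1 FPKM. The 11 highest genes lie above 100 FPKM on average, and COL5A2, the next, has a mean of 11.5 FPKM.

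Together the collagen genes took 0.598 to 0.874% of the summed FPKM of a library (median 0.693%). Fibrillar genes held 33.5% of the collagen sum, beaded filament genes 30.7%, basement membrane genes 22.0%, the multiplexins 5.97%, short-chain genes 4.12% and FACIT genes 3.43%. By class, 6 of 11 fibrillar, 4 of 6 basement membrane, 2 of 5 beaded filament, 2 of 10 FACIT, 1 of 2 multiplexin and 1 of 3 short-chain genes reached a mean of 1 FPKM, as did the single anchoring fibril gene COL7A1. None of the 4 transmembrane collagens did.

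Partner chains were often listed at very different levels. COL1A1 (chr17:50183289-50201632, minus strand), the main chain of collagen I, had a mean of 594 FPKM in the 91 tumors, while its usual partner COL1A2 had 0.0122 and was listed at 0 in 85 of them. COL6A1 and COL6A2 lay at 749 and 400.2 FPKM, and COL6A3, another chain of the classical collagen VI trimer, at 0.262. COL5A1 exceeded COL5A2 in all 91 tumors, by a median of 34.2 times (range 13.2 to 127), and COL8A1 at 154 FPKM stood beside COL8A2 at 0.388. COL4A5 at 105 FPKM exceeded its neighbor COL4A6 at 0.762 in every tumor. The part of hybrid capture in these differences between genes was not tested.

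COL4A1 and COL4A2, the chains of the common collagen IV network, were the most evenly matched of the pairs set side by side here, with a COL4A1 to COL4A2 ratio of 0.616 at the median and between 0.482 and 0.752 in all 91 tumors. The genes lie back to back on chromosome 13 (COL4A1 at chr13:110148963-110307149 on the minus strand, COL4A2 at chr13:110307267-110513027 on the plus strand, GRCh38), and 126 bases lie between their RefSeq transcription starts. The window from 250 bases before to 50 bases after the COL4A2 start is shown because it holds this shared stretch, which is in capitals. It is given 5′ to 3′ on the plus strand of GRCh38.p14 at chr13:110307034-110307333, and the start of COL4A1 lies just to the left of the capitals, reading to the left.
COL4A2: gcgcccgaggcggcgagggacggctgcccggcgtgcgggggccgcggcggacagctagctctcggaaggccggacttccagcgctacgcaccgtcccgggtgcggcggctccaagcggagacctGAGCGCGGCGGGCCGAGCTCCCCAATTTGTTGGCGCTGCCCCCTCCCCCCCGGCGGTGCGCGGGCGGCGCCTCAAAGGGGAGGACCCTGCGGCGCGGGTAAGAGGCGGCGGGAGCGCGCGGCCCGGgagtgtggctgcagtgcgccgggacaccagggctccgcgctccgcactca

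This window holds 45 CpG dinucleotides and has a GC content of 77.7%. The other pairs of close opposed collagen IV genes were not listed at even levels. COL4A6, COL4A3 and COL4A4 lie near or below 1 FPKM, where a low value may not show a low transcript level. Between the listed gene loci, COL4A5 and COL4A6 lie 346 bases apart on the X chromosome and COL4A3 and COL4A4 451 bases apart on chromosome 2, where COL4A1 and COL4A2 lie 117 apart by the same measure. The means were 105 and 0.762 FPKM for COL4A5 and COL4A6, and 0.283 and 1.22 FPKM for COL4A3 and COL4A4.

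Across tumors of the same group, COL4A1 and COL4A2 also moved together. With each tumor's log2(FPKM + 1) expressed as a deviation from its group mean, Pearson's r was 0.975 and Spearman's rho 0.965 over 91 tumors (permutation within groups, 100000 resamples, two-sided p = 1e-05 for both, the smallest the resamples can give, adjusted p = 1.5e-05 and 3e-05 over 3 chain pairs). Without the 2 tumors farthest from the median, r was 0.972, and it was 0.979, 0.975 and 0.974 within the 1 h, 3 to 6 h and 24 h studies. COL6A1 and COL6A2, 93046 bases apart on chromosome 21, gave r = 0.559 and rho = 0.510 (permutation p = 1e-05 and 2e-05, adjusted p = 1.5e-05 and 3e-05), with r = 0.531 without the 2 farthest tumors and 0.336, 0.608 and 0.634 within the studies. COL5A1 and COL5A2, which lie on different chromosomes, gave r = 0.179 and rho = 0.192 (permutation p = 0.136 and 0.112), so that no covariation was detected at this number of tumors.

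The 136 pairs among the 17 expressed genes were looked at in the same way, a choice made after values were seen, and 59 passed an adjusted p of 0.05 for Pearson's r, 33 with positive and 26 with negative sign, all 59 with the same sign in each of the 3 studies. COL1A1 followed COL4A2 (r = 0.830, rho = 0.833) and COL4A1 (r = 0.770, rho = 0.764), and all 3 ran opposite to COL8A1, a short-chain collagen (r = -0.758, -0.730 and -0.683 with COL4A2, COL4A1 and COL1A1). COL6A2, COL3A1 and COL27A1 were positively correlated (r = 0.655 for COL6A2 and COL3A1, 0.631 for COL6A2 and COL27A1 and 0.654 for COL3A1 and COL27A1), as were COL18A1 and COL4A5 (r = 0.605, rho = 0.556). COL18A1 ran opposite to COL3A1 (r = -0.591) and COL6A2 (r = -0.616). Values of both genes of a pair come from the same library, so that shared depth or tissue make-up enters these correlations and its part was not tested.

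**Figure D2:**
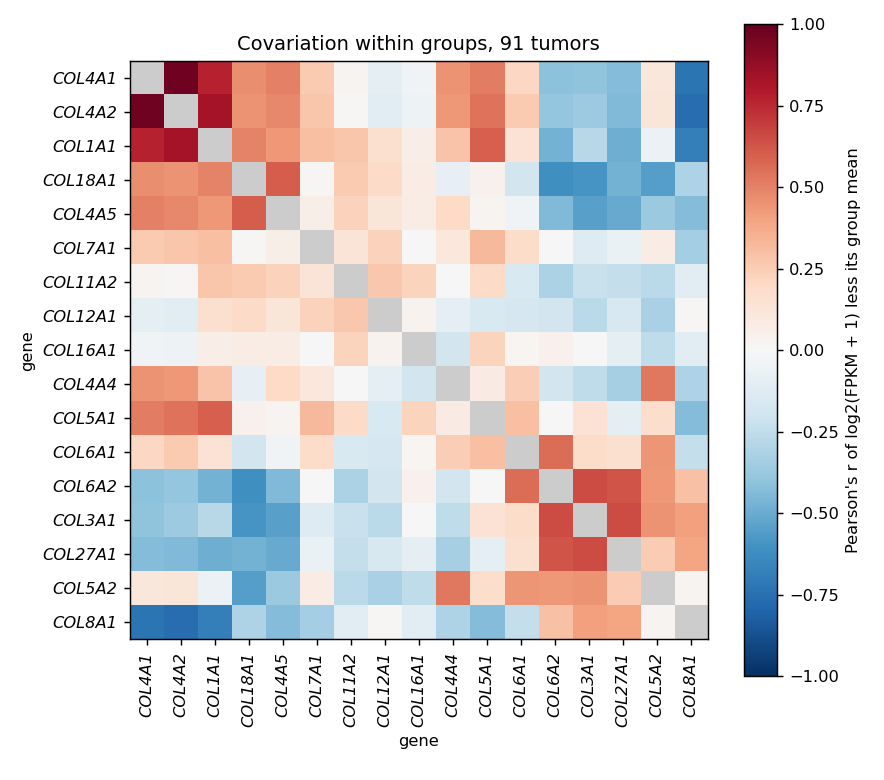
Pearson's r between the 17 expressed collagen genes over 91 tumors, each value being log2(FPKM + 1) less the mean of its group, with red for positive and blue for negative values. COL4A1, COL4A2 and COL1A1 correlate with each other at r of 0.770 or more, and COL8A1 is negative against all 3.

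Responses to K-975 were tested with limma on log2(FPKM + 1) over 13036 genes with 1 FPKM in at least 4 libraries, and a gene passed at an adjusted p under 0.05. The filter kept 25 of the 44 collagen genes, the 17 expressed and 8 of the other 27. These are bulk tumors, so that fewer cells of a type and less RNA per cell cannot be told apart.

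At 1 h and at 3 to 6 h, no collagen gene passed the threshold at any dose. In rising order of dose, the background of all genes that passed was 0%, 0.00767% and 0% at 1 h and 0.0153%, 0.43% and 0.069% at 3 to 6 h (0.299% and 0.0537% lower at the upper doses). Before adjustment, 2, 1 and 1 of the 25 collagen genes had p under 0.05 at 1 h (background 4.38%, 4.97% and 3.34%) and 1, 4 and 0 at 3 to 6 h (background 7.03%, 10.3% and 7.23%). COL8A1 at 100 mg/kg and 3 to 6 h had a log2 fold change of 0.65, SE 0.259, adjusted p = 0.333. Its level ran from 94.0 to 264 FPKM (n = 10) against 65.4 to 198 in the vehicle tumors (n = 10), so that the groups overlapped. For COL18A1, COL4A5 and COL6A1 the log2 fold changes at 200 mg/kg and 3 to 6 h were -0.020, -0.080 and -0.014 (SE 0.0687, 0.0879 and 0.0404). Taking the 6 dosed cage groups of that study separately, none of the collagen genes passed in any of them (background 0% to 1.33%), and 1, 0, 1, 5, 2 and 0 had p under 0.05 before adjustment in cage groups 4 to 9. The share of all genes before adjustment is not given here for these cage groups, so that these counts cannot be set against it. Between vehicle and untreated tumors no collagen gene passed in any study (background 0% in each), and 1, 0 and 1 had p under 0.05 before adjustment at 1 h, 3 to 6 h and 24 h (background 4.73%, 4.83% and 4.2%).

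At 24 h, 3 of the 25 collagen genes tested (12%) passed at 200 mg/kg, COL18A1, COL4A5 and COL6A1, all higher than vehicle, against a background of 7.41% of all genes (3.8% higher and 3.61% lower). At 100 mg/kg COL18A1 alone passed, with a background of 1.12%, and at 30 mg/kg none did, with a background of 0.0384% (0.0307% higher). None was lower at the threshold at any dose, where 0.537% of all genes were at 100 mg/kg. Before adjustment 2, 4 and 6 collagen genes had p under 0.05 in rising order of dose, beside 10%, 14.1% and 21.9% of all genes. The median log2 fold change of the 25 genes was -0.029 at the highest dose, beside 0.037 over all genes tested.

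**Figure D3:**
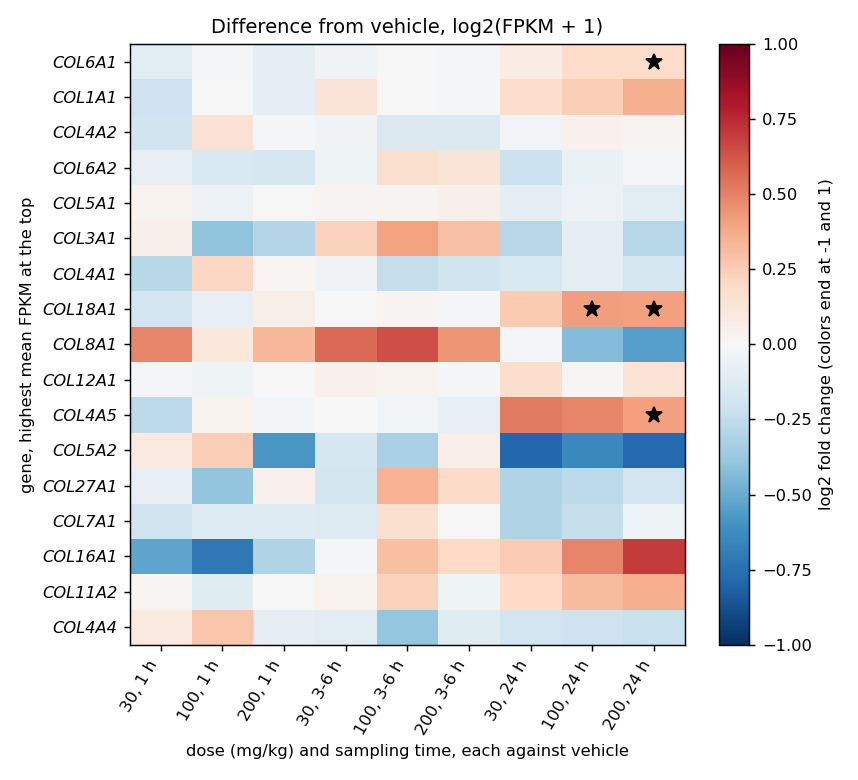
Difference from vehicle of the 17 expressed collagen genes at each dose and time, as the log2 fold change of FPKM + 1, red for higher and blue for lower, with a star where the adjusted p was under 0.05. The 4 stars stand in the 24 h columns, for COL18A1 at 100 and 200 mg/kg and for COL4A5 and COL6A1 at 200 mg/kg.

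COL18A1 (chr21:45405137-45513720, plus strand) encodes a multiplexin of basement membranes whose C-terminal fragment is endostatin, an inhibitor of vessel growth. The vehicle tumors at 24 h had 189, 189.5, 174 and 184 FPKM. At 200 mg/kg the values were 301, 210.2, 243, 245 and 234, at 100 mg/kg 219, 292, 244 and 234, and at 30 mg/kg 203, 216, 238 and 229. Every treated tumor was above all 4 vehicle tumors. The log2 fold change was 0.41, SE 0.103, adjusted p = 0.00748 for the highest dose, 0.42, SE 0.109, adjusted p = 0.0342 for the middle dose, and 0.26, SE 0.109, adjusted p = 0.390 for the lowest, which did not pass. The linear trend over dose also passed at 24 h (0.18 log2 units per 100 mg/kg, SE 0.0469, adjusted p = 0.0137), as 1 of 2 collagen genes that did so, against a background of 5.61%. No collagen gene passed in the trend at 1 h or at 3 to 6 h (background 0% and 0.215%). Before adjustment 1 and 2 collagen genes had p under 0.05 in these trends, for which the share of all genes is not given here.

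The call for COL18A1 at 200 mg/kg was lost when replicate 1 of that group, its highest tumor, was left out (adjusted p = 0.0603), as was the dose trend (adjusted p = 0.108). At 100 mg/kg it was lost on leaving out any of the 4 vehicle tumors (adjusted p between 0.0610 and 0.101) or treated replicate 2 (0.178) or 3 (0.0964). The 5 untreated tumors of the 24 h study had 186, 231, 174, 189 and 182 FPKM, and with these as reference the gene still passed at 200 mg/kg (adjusted p = 0.0139) and at 100 mg/kg (adjusted p = 0.0440). The effect of 200 mg/kg at 24 h exceeded that at 3 to 6 h by 0.43 log2 units (SE 0.124, adjusted p = 0.0489, background 1.72%), but this call was lost in 22 of 29 fits that each left out 1 tumor (adjusted p up to 0.169). It exceeded the effect at 1 h by 0.35 log2 units, which did not pass (adjusted p = 0.268, background 0.583%). In that comparison 4 collagen genes had p under 0.05 before adjustment, for which the share of all genes is not given here.

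The vehicle tumors of the 24 h study were themselves low in COL18A1. They spanned 174 to 189.5 FPKM, below all 5 vehicle tumors at 1 h (190.3 to 309.9) and all 10 at 3 to 6 h (195 to 258), while every treated tumor at 24 h lay within the span of those 15 vehicle tumors. Study and sampling time cannot be told apart in this design, and neither can treatment and cage group at 24 h. The 24 h vehicle libraries also held fewer genes at 1 FPKM (11356 to 11422) than those of 200 mg/kg (11424 to 11613), 100 mg/kg (11489 to 11561) and 30 mg/kg (11448 to 11571), and the part of this difference in the collagen results was not tested.

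**Figure D4:**
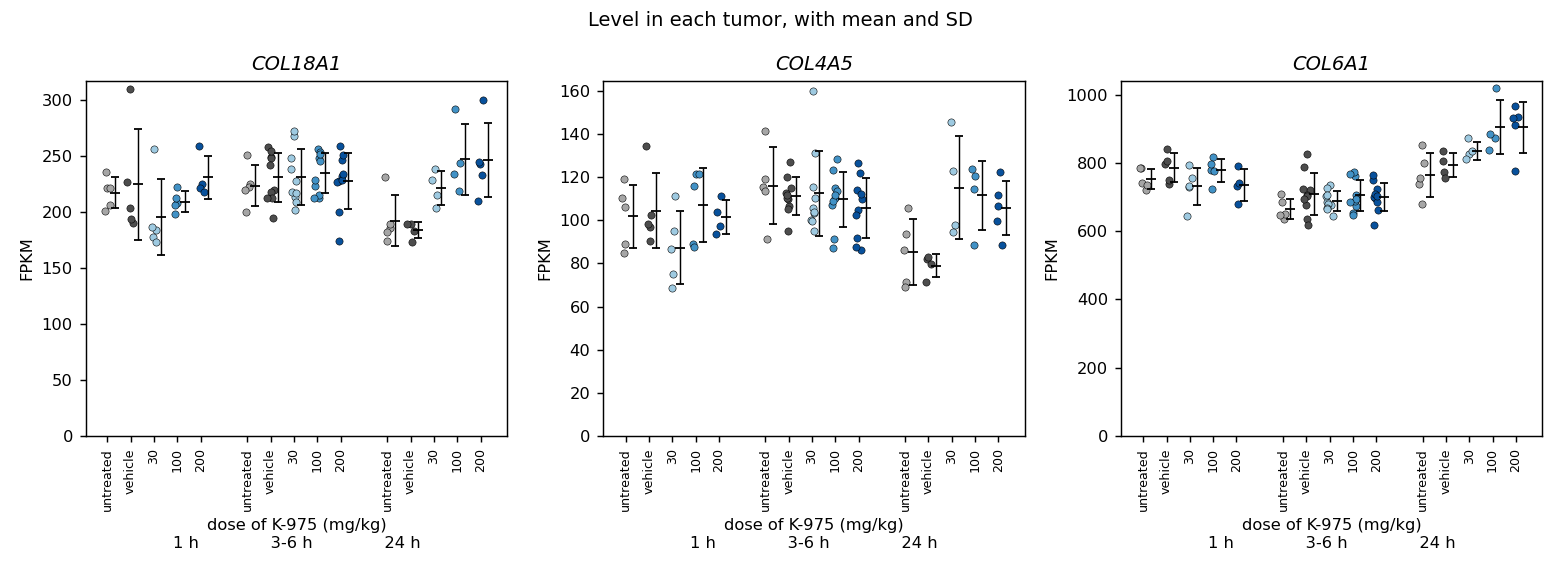
FPKM of COL18A1, COL4A5 and COL6A1 in each of 91 tumors (points), by treatment within the 1 h, 3-6 h and 24 h studies, with bars for the mean and SD of each group. At 24 h the 4 vehicle tumors lie at the low end for COL18A1 (174 to 189.5 FPKM) and COL4A5 (71.3 to 82.9 FPKM).

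RefSeq lists a pair of start windows for COL18A1, shown because this gene was called at both upper doses and because the FPKM of the whole gene does not separate its starts. They are given 5′ to 3′ on the plus strand of GRCh38.p14, at chr21:45404915-45405214 and chr21:45455272-45455571, with 86.7% and 66.3% GC. Capitals mark matches to any of 3 motifs searched on both strands, the core of the TATA box (TATAAA), the motif bound by TEAD factors (GGAATG) and the AP-1 motif, whose letters are TGANTCA. The first window held no match, and the other a single match to the TATA box core. The window of COL4A5, the other gene called with it at the highest dose that has one, lies at chrX:108439588-108439887 on the plus strand, has 49.3% GC, and held no match.
COL18A1, upstream start: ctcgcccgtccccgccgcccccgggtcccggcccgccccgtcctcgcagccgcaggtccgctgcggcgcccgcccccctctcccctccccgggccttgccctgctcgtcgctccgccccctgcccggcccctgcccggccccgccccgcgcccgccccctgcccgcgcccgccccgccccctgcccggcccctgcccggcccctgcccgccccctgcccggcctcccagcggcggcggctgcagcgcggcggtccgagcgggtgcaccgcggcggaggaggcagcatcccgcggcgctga
COL18A1, downstream start: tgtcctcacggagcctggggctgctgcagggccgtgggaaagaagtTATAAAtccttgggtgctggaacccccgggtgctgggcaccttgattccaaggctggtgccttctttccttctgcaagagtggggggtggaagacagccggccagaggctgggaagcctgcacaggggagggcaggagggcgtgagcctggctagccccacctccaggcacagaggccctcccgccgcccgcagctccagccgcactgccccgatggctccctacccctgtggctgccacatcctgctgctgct
COL4A5: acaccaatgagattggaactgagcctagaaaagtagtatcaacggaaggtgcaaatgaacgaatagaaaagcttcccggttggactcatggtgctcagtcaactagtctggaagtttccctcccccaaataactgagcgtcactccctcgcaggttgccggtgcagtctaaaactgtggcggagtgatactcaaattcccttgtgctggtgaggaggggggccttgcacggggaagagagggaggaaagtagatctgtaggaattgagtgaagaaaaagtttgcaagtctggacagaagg

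Over the family, 32 of the 44 genes had RefSeq windows. Expressed genes without one were COL6A1, COL1A1, COL3A1, COL8A1 and COL5A2. The windows were not all separate sequences, since those of COL4A1 and COL4A2 overlapped, as did the pair of COL5A1, and COL11A2 gave several. The 17 windows of 12 expressed genes had a median GC content of 73% and a median of 29 CpG dinucleotides, against 58.7% and 14 for the 27 windows of 20 genes below 1 FPKM and 58.7% and 14 for all 35116 windows of 27305 genes. GGAATG occurred in 2 of the 17 windows (11.8%), those of COL12A1 and COL11A2, and in 14.0% of all windows. TGANTCA occurred in none of the 17 and in 7.71% of all, and TATAAA in 3 of the 17 (17.6%) and in 11.5% of all. These counts describe letters in the windows and nothing about binding.

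COL4A5 (chrX:108439844-108697545, plus strand) encodes a chain of the collagen IV network of kidney and other basement membranes. The vehicle tumors at 24 h had 82.0, 82.9, 79.7 and 71.3 FPKM. At 200 mg/kg the values were 112, 88.6, 99.6, 122 and 107, at 100 mg/kg 88.4, 115, 120.4 and 124, and at 30 mg/kg 97.7, 94.4, 146 and 123. Again every treated tumor was above all vehicle tumors, and the means were 115, 112 and 106 FPKM in rising order of dose. The log2 fold change was 0.41, SE 0.132, adjusted p = 0.0402 for the highest dose. It was 0.49, SE 0.139, adjusted p = 0.0580 for the middle and 0.52, SE 0.139, adjusted p = 0.111 for the lowest dose, neither of which passed. The dose trend did not pass (0.13 per 100 mg/kg, SE 0.0600, adjusted p = 0.220). The call was lost in 8 of 9 fits that each left out 1 tumor, all but that without treated replicate 2 (adjusted p between 0.0565 and 0.108). Against the untreated tumors of the 24 h study (69.3 to 106 FPKM) the difference was 0.32 and did not pass (adjusted p = 0.0984). The 24 h vehicle tumors were below all vehicle tumors of the other studies for this gene too (90.5 to 135 FPKM at 1 h and 95.2 to 127 at 3 to 6 h).

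COL6A1 (chr21:45981737-46005050, plus strand), the first chain of collagen VI, showed the smallest change of the genes called. The vehicle tumors had 837, 807, 776 and 758 FPKM, and the tumors at 200 mg/kg 935, 911, 933, 778 and 969.8. Treated replicate 4 lay within the vehicle range and the others above it. The log2 fold change was 0.19, SE 0.0606, adjusted p = 0.0452, a 1.14-fold level. At 100 mg/kg (874, 840.3, 887 and 1022 FPKM) it was 0.19, SE 0.0639, adjusted p = 0.139, and at 30 mg/kg (826, 837, 874 and 811 FPKM) 0.076, SE 0.0639, adjusted p = 0.723. The dose trend passed (0.089 per 100 mg/kg, SE 0.0276, adjusted p = 0.0375) and was lost in 8 of 17 fits that each left out 1 tumor. At 200 mg/kg the call was lost on leaving out vehicle replicate 2, 3 or 4 or treated replicate 1, 3 or 5 (adjusted p between 0.0767 and 0.128), and under median-ratio scaling (adjusted p = 0.0958). Against untreated tumors the difference was 0.24 and passed (adjusted p = 0.00415).

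The partner chain COL6A2 did not pass. Its values were 522, 515, 469.6 and 440.2 FPKM in the vehicle tumors and 446, 585, 509, 369 and 524 at 200 mg/kg, with a log2 fold change of -0.014, SE 0.146, adjusted p = 0.974. COL1A1 had 539, 559.7, 544 and 445 FPKM with vehicle and 868, 445, 941, 566 and 628 at 200 mg/kg (0.35, SE 0.224, adjusted p = 0.370), with 4 of 5 treated tumors above all vehicle tumors and a wide spread. COL3A1, the chain of collagen III, had 412, 476, 456 and 392 FPKM with vehicle and 328, 536, 451, 186 and 385 at 200 mg/kg (-0.28, SE 0.247, adjusted p = 0.547). For these 3 genes the treated and vehicle tumors overlapped.

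The chains of collagen IV other than COL4A5 did not pass either. COL4A2 gave 438, 439.9, 466 and 348 FPKM with vehicle and 473, 419, 474, 404 and 379 at 200 mg/kg (0.026, SE 0.175, adjusted p = 0.957), and COL4A1 a difference of -0.17, SE 0.247, adjusted p = 0.752. COL5A1, a fibrillar chain that regulates fibril diameter, had 398, 399.9, 361 and 397 FPKM with vehicle and 361, 345, 406, 328 and 359 at 200 mg/kg (-0.11, SE 0.0889, adjusted p = 0.486). Of the 6 genes of highest mean, COL6A1 was the only one that passed at any dose or time.

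Among the expressed genes of lower level, COL16A1, a FACIT collagen, had 5 of 5 treated tumors above all vehicle tumors without passing. Its vehicle tumors at 24 h had 7.43, 6.31, 3.90 and 6.28 FPKM and the tumors at 200 mg/kg 11.4, 8.55, 9.74, 11.2 and 9.88 (0.70, SE 0.257, adjusted p = 0.0810). The untreated tumors of that study ran from 4.99 to 18.6 FPKM and overlapped both groups. COL5A2 had 16.2 to 23.8 FPKM with vehicle and 4.73 to 21.4 at 200 mg/kg (-0.78, SE 0.380, adjusted p = 0.212), and COL8A1 135 to 215 and 70.4 to 146 FPKM (-0.55, SE 0.388, adjusted p = 0.431). Near the limit of expression, COL4A4 had 1.18, 1.07, 1.36 and 1.12 FPKM with vehicle and 1.24, 0.855, 0.959, 0.645 and 0.7101 at 200 mg/kg (-0.22, SE 0.210, adjusted p = 0.581). COL9A3 had 0.302, 1.24, 0.942 and 0.306 and 0.865, 2.50, 1.32, 0.393 and 2.13 FPKM (0.49, SE 0.276, adjusted p = 0.3002), and COL4A6 0.506, 0.701, 0.653 and 0.394 and 0.721, 0.590, 0.719, 0.798 and 0.598 (0.11, SE 0.171, adjusted p = 0.761), with overlapping groups in each case.

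Collagen chains are modified, folded, exported, trimmed and crosslinked by dedicated proteins, and 57 genes for these steps and for collagen receptors were listed, of which 51 were tested. At 200 mg/kg and 24 h, 8 of the 51 passed (15.7%, beside the 7.41% of all genes), 7 lower and 1 higher, with a median log2 fold change of -0.11 over the 51 and 0.037 over all genes. At the middle dose 1 of the 51 passed, beside 1.12% of all genes, and at the lowest none, beside 0.0384%. Unadjusted p was under 0.05 for 11 and 9 of the 51 at these doses, beside 14.1% and 10% of all genes.

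The crosslinking enzymes LOX and LOXL2 fell. LOX, the lysyl oxidase that oxidizes lysines for crosslinks, averaged 680.5 FPKM with vehicle (563 to 766) and 344 (207 to 508) at 200 mg/kg, a log2 fold change of -1.05, SE 0.306, adjusted p = 0.0237. Its homolog LOXL2 went from 254 (225 to 264) to 162 (126 to 208), a change of -0.66, SE 0.138, adjusted p = 0.00106. In both cases the groups did not overlap. The other 5 tested genes of the crosslinking list, not all of them lysyl oxidases, did not pass.

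**Figure D5:**
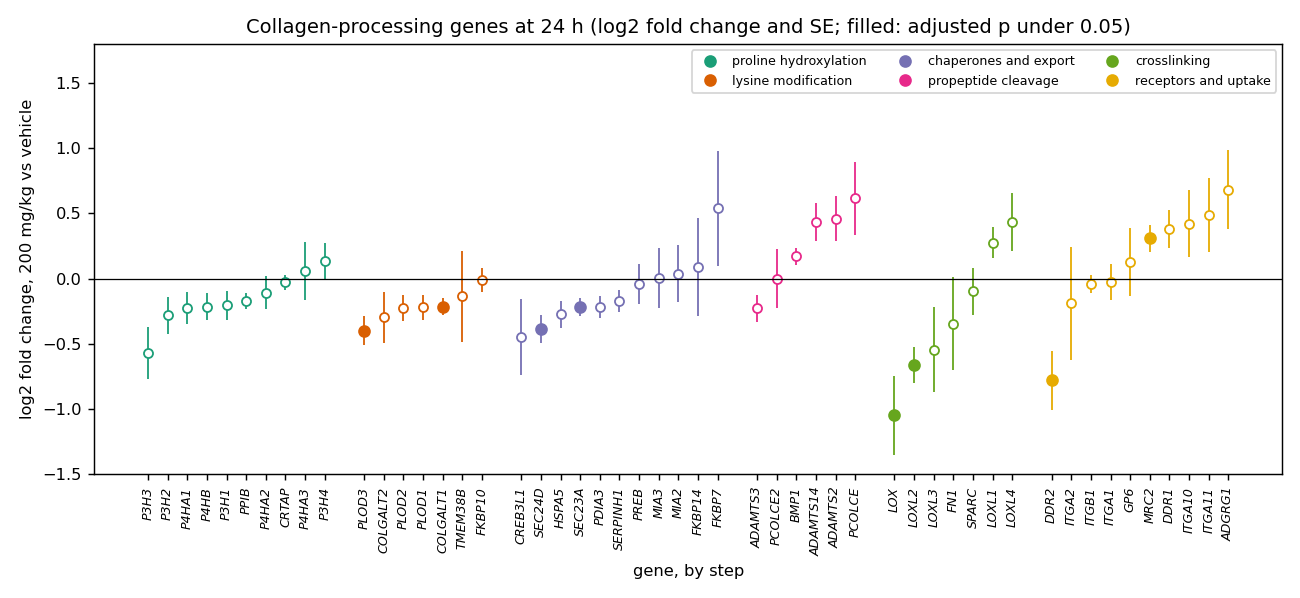
Log2 fold change of FPKM + 1 at 200 mg/kg against vehicle at 24 h for the 51 tested genes of collagen modification, export, cleavage, crosslinking and receptors, with bars for the SE and filled points for an adjusted p under 0.05. The 8 filled points include LOX at -1.05 and LOXL2 at -0.66, with MRC2 the only filled point above 0.

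Of 7 lysine-modifying genes, PLOD3, a lysyl hydroxylase with glycosyltransferase activity (-0.40, SE 0.108, adjusted p = 0.0139), and COLGALT1, a collagen galactosyltransferase (-0.21, SE 0.0628, adjusted p = 0.0245), fell, and the other 5 had values below 0 without passing. Of 11 genes for chaperones and export, the COPII coat genes SEC24D (-0.39, SE 0.108, adjusted p = 0.0167) and SEC23A (-0.22, SE 0.0697, adjusted p = 0.0402) fell. SERPINH1, the collagen chaperone HSP47, was at -0.17, SE 0.0837, adjusted p = 0.207. PLOD2, another lysyl hydroxylase, was at -0.22, SE 0.101, adjusted p = 0.170, and P4HA2, a prolyl hydroxylase subunit, at -0.11, SE 0.126, adjusted p = 0.670. None of the 10 genes of proline hydroxylation and none of the 6 tested genes of propeptide cleavage passed, with 3 and 5 before adjustment. The share of all genes before adjustment at this dose is given above beside the collagen genes. PCOLCE, an enhancer of procollagen C-proteinase, was the gene that passed at 100 mg/kg (1.08, SE 0.295, adjusted p = 0.0455), a call lost in 6 of 8 fits that each left out 1 tumor.

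Among 10 collagen receptor and uptake genes, DDR2, a receptor tyrosine kinase for fibrillar collagen, fell (-0.78, SE 0.226, adjusted p = 0.0232) and MRC2, which takes up collagen for degradation, rose (0.31, SE 0.103, adjusted p = 0.0488). Of the 8 calls at 200 mg/kg, that for LOXL2 alone held in all 9 fits that each left out 1 tumor (adjusted p up to 0.0124). SEC24D was lost without vehicle replicate 3 (adjusted p = 0.0504), PLOD3 in 3 of the 9 fits, DDR2 in 4, LOX in 5, COLGALT1 in 6, SEC23A in 7 and MRC2 in 8.

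Of the 7 mesothelial markers, 3 also rose at 200 mg/kg and 24 h, MSLN (0.40, SE 0.128, adjusted p = 0.0414), CALB2 (0.39, SE 0.112, adjusted p = 0.0198) and KRT19 (0.32, SE 0.0977, adjusted p = 0.0314). These 3 are 42.9% of the list, beside the share of all genes that passed at this dose, given above. The other 4, KRT8, KRT18, WT1 and UPK3B, had log2 fold changes between -0.10 and -0.027 without passing, and the median of the 7 was -0.027. At 30 and 100 mg/kg and 24 h none of the 7 passed, but all 7 had log2 fold changes above 0, with medians of 0.24 and 0.18. Before adjustment 3 and 2 had p under 0.05, beside the shares of all genes given above for these doses. The summed level of the list, which the abundant genes carry, was 2131 to 2188 FPKM with vehicle and 2283 to 2780.2 at 200 mg/kg. It was 2429 to 2674 FPKM at 30 mg/kg and 2260 to 2733 at 100 mg/kg, also above vehicle. A list of adipocyte and keratinocyte markers summed to 680.2 to 815 FPKM with vehicle and 887 to 1278 at 200 mg/kg, again without overlap. Nearly all of that sum was KRT5, at a mean of 933 FPKM over the 91 tumors. KRT14 averaged 11.3, KRT10 3.68, PLIN1 0.125 and ADIPOQ 0.00122 FPKM, so that the sum follows KRT5 and neither cell type. Fibroblast markers summed to 167 to 182 and 138 to 184 FPKM, leukocyte markers to 148 to 227 and 130.4 to 209.9, endothelial markers to 33.2 to 71.1 and 31.5 to 94.2, mural and muscle markers to 17.8 to 23.2 and 23.2 to 35.0 and erythroid markers to 0 to 1.85 and 0 to 1.22. The fibroblast list includes COL6A3, itself a member of the collagen family, and so is not separate from it. None of the 7 fibroblast, 5 leukocyte, 4 endothelial and 3 mural genes tested passed in limma. Before adjustment 0, 1, 0 and 0 had p under 0.05, beside the share of all genes given above for this dose. The part of tissue make-up in the collagen values was not tested.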

How the data were processed

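The deposited table held FPKM values for 94 tumors, made by the authors from KAPA RNA HyperPrep libraries with HyperCap enrichment. The submitters' processing notes name STAR and GRCh38. The quantification tool, the annotation and the treatment of mouse reads are not given in the sources used here. The table had 20555 entries. The entry of highest mean was kept for each of 20239 gene IDs (284 IDs had more than 1, COL13A1 among them), 32 blank cells were read as 0, and starts were converted to count from 1. Of the 44 collagen loci, 31 equal those of GENCODE 29.

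Differences were tested with limma 3.58.1 in R 4.3.3 (trend and robust) on log2(FPKM + 1), with a coefficient for each of 19 groups, in 91 libraries with at least 10000 genes at 1 FPKM. Genes needed 1 FPKM in at least 4 libraries, and Benjamini-Hochberg adjustment ran over 13036 genes per comparison. Because of the added 1, a fold change understates the change of low genes. Correlations used deviations from group means with 100000 permutations within groups. The fit was tested on simulated data, and other pseudocounts, filters, scalings, references and sets of libraries were tried. Members, lists and tests were chosen with earlier results of these data known. All members may be named. Per-tumor values are given for members called against vehicle, the 6 of highest mean and those near 1 FPKM, and collagen-processing genes are named when called at 100 or 200 mg/kg at 24 h, at most 8 by size, with P4HA2, LOX, SERPINH1 and PLOD2. COL16A1, COL5A2, COL8A1 and COLGALT1 were singled out after their values were seen. Replicate numbers within a group only name tumors.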

Additional observations from a re-analysis of the deposited data

Results flagged for a closer look

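In groups of 4 or 5 tumors, a tumor was set apart when its gap to the nearest other tumor was a larger share of the group's range than Dixon's 95% critical value. Of 209 such checks over 11 collagen genes, 20 were set apart, where chance gives about 1 in 20 checks, that is about 10.45.

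For COL18A1 these were 259.2 FPKM at 200 mg/kg and 1 h (replicate 3, the others 218 to 225), 259.3 in cage group 4 at 200 mg/kg and 3 to 6 h (replicate 1, others 227 to 232), 256 at 30 mg/kg and 1 h (replicate 2, others 173 to 187) and 231 in the untreated 24 h group (replicate 2, others 174 to 189). For COL4A5 they were 87.2 in cage group 6 at 100 mg/kg (replicate 3, others 107 to 115), 135 with vehicle at 1 h (replicate 1, others 90.5 to 102) and 120.3 in vehicle cage group 3 (replicate 5, others 109.8 to 113).

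Among the other genes of high level, COL1A1 had 858 FPKM in the untreated 3 to 6 h group (replicate 3), COL4A2 617 in cage group 7 at 100 mg/kg (replicate 5) and 585 at 30 mg/kg and 1 h (replicate 2), COL5A1 408 at 200 mg/kg and 1 h (replicate 2) and 361 with vehicle at 24 h (replicate 3), and COL3A1 159 in cage group 8 at 30 mg/kg (replicate 3) and 151 in the untreated 24 h group (replicate 2, others 408 to 502). Near 1 FPKM, COL4A4 had 2.34 in cage group 5 at 200 mg/kg (replicate 3), 1.87 at 30 mg/kg and 24 h (replicate 4) and 1.76 in cage group 9 at 30 mg/kg (replicate 4), COL9A3 had 0.396 at 100 mg/kg and 24 h (replicate 2), and COL4A6 had 0.943 in the untreated 24 h group (replicate 2) and 1.65 in the untreated 3 to 6 h group (replicate 3). The untreated 24 h tumor of replicate 2 was set apart for 3 of these genes, higher in COL18A1 and COL4A6 and lower in COL3A1.

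The effect of 200 mg/kg on COL18A1 differed between the 24 h and the 3 to 6 h studies by 0.43 log2 units in the test of that difference (adjusted p = 0.0489). This call was lost in 22 of 29 fits that each left out 1 tumor. As given above, the 24 h vehicle tumors were low in this gene.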

How the results depend on the processing

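The sets of called collagen genes were small, and several changed with the processing. At 200 mg/kg and 24 h, 3 collagen genes passed, against 1 without the filter on low values, 0 with all 94 libraries and 5 with all 94 libraries and array weights. At 100 mg/kg and 24 h, 1 passed, against 2 with a filter at 5 FPKM, 0 with all 94 libraries, 0 when only the groups compared were fitted and 2 with untreated tumors as reference. At 30 mg/kg and 24 h, 0 passed, against 4 with all 94 libraries. For the dose trend at 24 h, 2 passed, against 1 after quantile normalization, 1 after median-ratio scaling, 0 with all 94 libraries and 4 with array weights. For the effect of 200 mg/kg at 24 h less that at 3 to 6 h, 1 passed, against 0 without the filter, 0 after median-ratio scaling, 0 with all 94 libraries and 3 with array weights, and for 24 h less 1 h, 0 passed, against 1 with array weights. In the fit of all 94 libraries, 1 library with 702 genes at 1 FPKM lies in the 30 mg/kg, 24 h group. The shares of all genes that passed under these alternatives, or on leaving out 1 tumor, are not given here. These counts of collagen genes therefore cannot be set against them.

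Leaving out 1 tumor at a time gave 0 to 4 calls at 200 mg/kg and 24 h (0 without treated replicate 1, 4 without treated replicate 2), 0 to 2 at 100 mg/kg and 24 h (2 without treated replicate 1), 0 to 2 for the dose trend at 24 h (0 without treated replicate 1 of 200 mg/kg), 0 to 2 for 24 h less 3 to 6 h (2 without treated replicate 2 of 200 mg/kg at 24 h), 0 to 1 for 24 h less 1 h (1 without treated replicate 4 of 200 mg/kg at 24 h) and 0 to 1 over the cage groups at 3 to 6 h (1 without replicate 2 or 3 of vehicle cage group 2, replicate 2 or 4 of vehicle cage group 3, or replicate 1 of cage group 7). The counts for each dose and the dose trend at 1 h and, with cage groups pooled, at 3 to 6 h, for 3 to 6 h less 1 h and for vehicle against untreated tumors stayed at 0 under every alternative run for them. Directions turned for COL18A1 at 30 mg/kg and 24 h with all 94 libraries (-1.29), for the dose trend of COL6A1 with all 94 libraries (-0.027), and, for genes near no difference at 200 mg/kg and 24 h, for COL6A2 after quantile normalization (0.0069), for COL7A1 with array weights (0.045) and with untreated tumors as reference (0.24), and between -0.065 and 0.075 for COL4A2, -0.085 and 0.081 for COL6A2 and -0.21 and 0.13 for COL7A1 on leaving out 1 tumor. The cause of these changes was not tested. The correlations of the 3 chain pairs moved by less than 0.1 with a pseudocount of 0.1 or median-ratio scaling, and 17 genes counted as expressed under each definition. No paired analysis was possible because the replicate numbers only name tumors and link no tumor to one in another group. Depth is unknown, so no limit of detection can be given for genes listed at or near 0.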

Other observations

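The mean levels of some collagens in tumors that received no K-975 are given here by study. Over untreated and vehicle tumors together, COL3A1 averaged 334 ± 65.4 FPKM (mean ± SD, n = 10) at 1 h, 202 ± 37.9 (n = 15) at 3 to 6 h and 407 ± 103 (n = 9) at 24 h. Its neighbor COL5A2, 19149 bases away on chromosome 2, stood at 15.9 ± 7.06, 8.44 ± 4.64 and 16.6 ± 6.14 FPKM in the same order, and COL6A2 at 413 ± 32.7, 353 ± 77.9 and 495 ± 86.4. COL4A5 was lowest at 24 h, at 103 ± 15.2, 113 ± 12.03 and 82.5 ± 11.8, as was COL18A1, at 221 ± 34.6, 229 ± 20.4 and 189 ± 17.2. The ranges of the 3 studies overlapped for COL5A2, COL6A2, COL4A5 and COL18A1 (362 to 455, 233 to 523 and 308 to 597 FPKM for COL6A2, for example). For COL3A1 the 24 h range was 151 to 502 FPKM, where the 151 was untreated replicate 2, set apart above. The other untreated tumors at 24 h had 408 to 502 FPKM. They and the 24 h vehicle tumors lay above the COL3A1 range at 3 to 6 h (132 to 259) and overlapped that at 1 h (239 to 462). Study, sampling time and animals cannot be told apart here, and no test was run across the studies.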
